A study of Salmo salar with 60 samples.

Results

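The 150 probes described here lay to one side of day 0 on days 3, 5 and 7 of soybean meal feeding in the distal intestine of Atlantic salmon, by the most relative to the spread between fish on whichever of those days was nearest to day 0. They were taken from 16476 bright probes, those with a median background-corrected Cy5 signal of 200 or more and never given flag code 1, out of 43627 probes analysed on the array. The mean of each of the 3 days minus the day 0 mean was divided by the pooled standard deviation within days, in the authors' table of log2 values. The 4975 bright probes with one sign on all 3 days were then ranked by the smallest of the 3 absolute values, which is called the score below. The top 150 held 84 probes above day 0 and 66 probes below it. The members were thus chosen by their displacement from day 0 on days 3, 5 and 7, which is described here without a test.

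All fish were Atlantic salmon of the Sunndalsøra breed in seawater tanks, adapted to a diet with fishmeal as the protein source, and no age was given in the labels. Day 0 fish (9 arrays compared) were sampled on this diet, and fish of duplicate tanks were sampled after 1, 2, 3, 5 or 7 days on a diet in which defatted soybean meal replaced part of the fishmeal (10 arrays each). Only fish with content throughout the gut were taken, and the labels name no fish kept on fishmeal over the same days, so days of feeding and days in the experiment cannot be told apart. Each array set the Cy5-labelled RNA of 1 fish against a Cy3-labelled pool of 18 fish, 3 of each sampling day. Median signals per array ran from 55.5 to 125 in Cy5 and from 53.5 to 92.0 in Cy3, and any pair of arrays had a correlation of log2 ratios between -0.447 and 0.625 across probes. Which way the ratio points was taken from the dyes stated in the labels.

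Soybean meal causes an inflammation of the distal intestine in salmonids, known as soybean meal-induced enteritis. In this condition the mucosal folds shorten, the absorptive cells lose their supranuclear vacuoles, and inflammatory cells enter the lamina propria. The probes carry only a column and a row on the array, so no member could be tied to a gene, and the identity of the tissue was not checked against marker genes. Values below are log2 ratios of fish to reference pool after normalization within each array, abbreviated to log2 ratio. A value of 0 means the typical ratio of probes of like signal on that array, not equal raw signal in both dyes. In whole tissue, a change in the number of cells of a type and a change in RNA per cell cannot be told apart.

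As a group, the members were displaced by small amounts. The 84 probes above day 0 had median log2 differences from it of 0.23, 0.24 and 0.21 on days 3, 5 and 7, which is 1.17-fold, 1.18-fold and 1.16-fold. The 66 probes below day 0 had medians of -0.24, -0.22 and -0.22, or 0.848-fold, 0.861-fold and 0.861-fold of day 0. Over all 16476 bright probes the medians were 0.021, 0.012 and -0.0020. A difference beyond 2-fold was found for 1 member on day 3, 1 on day 5 and 2 on day 7. Over the 16476 bright probes it was found for 30, 47 and 5. These members were C197R161 on all 3 days and C103R050 on day 7, with standard deviations within days of 1.28 and 1.12. In the same comparisons over all 43627 probes, limma called 0 probes (0%) at an adjusted p of 0.05 on each of days 3, 5 and 7, with smallest adjusted p-values of 0.956, 0.989 and 1.00, so 0 of the 150 members passed there.

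The members did not separate the fish of single days. On none of days 3, 5 and 7 did the 10 fish lie wholly above or below the 9 day 0 fish for any member, nor for any of the 43627 probes (0%). Of the 30 fish of these days, between 17 and 30 lay on the listed side of the day 0 median, with a median of 24 over the members. Between 0 and 4 of the 9 day 0 fish lay beyond the median of those 30 fish. Averaging over members narrowed the spread between fish. The mean over the 84 probes was -0.18 ± 0.087 on day 0 (SD, n = 9), against 0.10 ± 0.048, 0.088 ± 0.072 and 0.063 ± 0.058 on days 3, 5 and 7 (n = 10 each). Over the 66 probes it was 0.21 ± 0.091 on day 0, then -0.039 ± 0.078, -0.044 ± 0.093 and -0.031 ± 0.083. On days 3 and 5 all 10 fish lay beyond every day 0 fish in both means. On day 7 9 of 10 fish did so in each mean, the exception being replicate 3 for the probes above day 0 and replicate 8 for those below. Choosing probes by these same fish favours such a separation, so it is a description and no support.

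The highest score, 1.25 standard deviations, belonged to probe C220R142, which was below day 0. Its day 0 log2 ratios ran from -0.34 to 1.25 with a median of 0.70. They ran from 0.013 to 0.46 with a median of 0.23 on day 3, from -0.12 to 0.63 with a median of 0.13 on day 5, and from -0.65 to 0.65 with a median of 0.34 on day 7. All 30 of these fish were below the day 0 median, yet 1 day 0 fish, at -0.34, lay below every fish of days 3 and 5. The mean differences from day 0 were -0.40, -0.48 and -0.38, with a standard error of 0.14. This was a dim member. Its median Cy5 signal was 252 on day 0, then 244, 189 and 250 on the later days, and the Cy3 signal of the reference on the same arrays was 128, then 157, 151 and 144.

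Probe C184R019, also below day 0, was bright, with a median Cy5 signal of 5228. Its log2 ratio ran from -0.092 to 0.59 on day 0 (median 0.26), from -0.24 to 0.34 on day 3 (median -0.014), from -0.40 to 0.33 on day 5 (median -0.080) and from -0.53 to 0.32 on day 7 (median 0.036). The groups overlapped over most of their range, and 27 of the 30 later fish lay below the day 0 median. The differences were -0.22, -0.25 and -0.23 (standard error 0.11). Probe C150R019 ran from -0.50 to 0.62 on day 0 (median 0.29), from -0.55 to 0.35 on day 3 (median -0.16), from -0.64 to 0.38 on day 5 (median -0.089) and from -1.17 to 0.34 on day 7 (median -0.0068). Its differences of -0.33, -0.35 and -0.35 (standard error 0.17) were nearly equal on the 3 days, with 25 of 30 fish below the day 0 median.

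Among the probes above day 0, C251R152 had the highest score, 1.00. Its log2 ratio ran from -0.80 to 0.24 on day 0 (median -0.24), from -0.37 to 0.37 on day 3 (median 0.0082), from -0.48 to 0.38 on day 5 (median 0.023) and from -0.32 to 0.36 on day 7 (median -0.037). Its 3 differences, 0.26 each with a standard error of 0.12, were nearly equal, and 25 of 30 fish lay above the day 0 median. Probe C099R030 ran from -0.94 to 0.32 on day 0 (median -0.24), from -0.46 to 0.50 on day 3 (median 0.19), from -0.31 to 0.51 on day 5 (median 0.049) and from -0.20 to 0.48 on day 7 (median 0.057). Its differences were 0.36, 0.25 and 0.30 (standard error 0.13), with 28 of 30 fish above the day 0 median. Probe C118R051 had the tightest day 0 fish of the 6, from -0.59 to -0.16 (median -0.40). It ran from -0.57 to 0.13 on day 3 (median -0.17), from -0.53 to 0.28 on day 5 (median -0.16) and from -0.40 to 0.091 on day 7 (median -0.17). On each of these days 5 of 10 fish were above every day 0 fish, and the differences were 0.24, 0.28 and 0.21 (standard error 0.11).

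The next 7 members in each direction by score included C197R161 and C120R012, which had larger differences than the others. Above day 0, C175R020, C062R151, C051R027, C002R143, C084R099 and C008R027 differed from day 0 by 0.16 to 0.31 on the 3 days. Of these, C175R020 was among the brightest members, with a median Cy5 signal of 27123, and C002R143 was close to the limit at 213. C197R161 had differences of 1.23, 1.13 and 1.30 (standard error 0.56), or 2.35-fold, 2.19-fold and 2.46-fold. Its day 0 fish ran from -2.44 to 0.34 with a median of -1.91. On days 3, 5 and 7 its medians were -0.11, -0.13 and 0.044, with lowest fish at -2.54, -2.90 and -2.80 and highest fish at 0.92, 1.15 and 1.07. Low and high fish of this probe thus occurred on every day, and its standard deviation within days, 1.28, was the largest among members.

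Below day 0, C242R044, C105R153, C196R088, C217R119 and C095R007 differed by -0.11 to -0.39 on the 3 days. For C095R007, a dim probe with a median Cy5 signal of 203, the day 7 difference was -0.34. Its lowest day 7 fish was at -2.04, and the day 7 median was -0.098, against 0.061 on day 0. C120R012 differed by -0.58, -0.44 and -0.65, with day 0 fish from -0.80 to 1.87 around a median of -0.23, so its day 0 mean of 0.067 stood above that median. The medians of C120R012 on days 3, 5 and 7 were -0.60, -0.29 and -0.61. On these days 8, 5 and 10 of 10 fish lay below the day 0 median. C213R081 differed by -0.15 on day 3, -0.14 on day 5 and -0.37 on day 7 (standard error 0.099).

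At the lower end of the list, the scores of ranks 148, 149 and 150 (C042R011, C230R076 and C222R158) were 0.546, 0.545 and 0.545. Those of the 3 probes just outside (C121R084, C211R143 and C205R011) were 0.545, 0.544 and 0.544. No gap in score separated the members from the probes that followed.

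Within days, fish differed by a standard deviation of 0.15 to 1.28 for the members, with a median of 0.27 against 0.36 for all bright probes, and the score divides by this spread. The day with the mean farthest from day 0 was day 3 for 36, day 5 for 30 and day 7 for 18 of the 84 probes above day 0. For the 66 below, it was day 3 for 22, day 5 for 23 and day 7 for 21.

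Days 1 and 2 were not used to choose the members, but their differences are taken from the same day 0 fish, so they carry the same day 0 deviation as the later days. On day 1 the 84 probes above day 0 had a median difference of 0.14 and a range from -0.063 to 1.46. On day 2 the median was 0.16, and the values ran from -0.0057 to 1.00. For the 66 probes below day 0, day 1 had a median of -0.11 (from -0.58 to 0.11) and day 2 a median of -0.17 (from -0.49 to 0.027). Over all bright probes the medians were 0.0052 on day 1 and 0.0046 on day 2. Relative to its own mean difference on days 3, 5 and 7, the median probe above day 0 stood at 59.5% on day 1 and at 71.3% on day 2. For the median probe below day 0 the shares were 55.9% and 80.2%. By fish, the mean over the 84 probes was -0.0077 ± 0.059 on day 1 and 0.021 ± 0.068 on day 2, and over the 66 probes it was 0.080 ± 0.081 and 0.011 ± 0.074 (SD, n = 10 each).

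The values of single members on days 1 and 2 are given as a description, since differences in timing between members were not tested. C099R030 was 0.33 above day 0 on day 1 and 0.28 on day 2, as far as on the later days. C213R081 was farther from day 0 on days 1 and 2, at -0.32 and -0.36, than on days 3 and 5. C184R019 was at 0.028 on day 1 and -0.21 on day 2. C150R019 was at 0.064 and 0.027, and its mean differences were of the opposite sign and larger from day 3 on. C084R099 stood at 0.026 on day 1 and 0.21 on day 2.

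The step from day 1 to day 2 was tested over all probes, since neither day's mean chose the members, although the spread of both days entered the pooled standard deviation. With limma, 0 of 43627 probes (0%) passed an adjusted p of 0.05, with a smallest adjusted p of 0.666, and 0 of 150 members passed, with a smallest adjusted p of 0.999. At an unadjusted p under 0.05, 9 of 150 members were counted, where 4.32% of all probes were. Fitted to bright probes alone, limma counted 542 of 16476 probes and 9 of 150 members. Of these members 4 were higher on day 2 (2.18% of all probes) and 5 lower (2.14%). This balance depended on the normalization. With median centring in place of loess, 19 members were counted, all 19 of them higher on day 2. Over all 43627 probes 3625 were counted, 1769 of them higher, and 0 members passed an adjusted p of 0.05. The median difference of day 2 minus day 1 over the members was -0.018, against 0.0014 over all probes and -0.0011 over bright probes. This median pools members above and below day 0 with no sign turned, so opposite moves can cancel in it. The counts of members were not split by list either. From day 1 to day 2, the median difference from day 0 went from 0.14 to 0.16 for probes above day 0. For those below day 0 it went from -0.11 to -0.17. Both lists thus lay farther from day 0 on day 2, but this step was not tested by list. With median centring the pooled median over the members was 0.16, against 0.019 over all probes. The members are all bright, and no median over bright probes was taken for this step with median centring. Nothing particular to the members is therefore read from the median-centred values. The 3 members with the smallest p were all below day 0 on the later days. C184R073 was 0.39 higher on day 2 than on day 1 (standard error 0.14, limma p = 0.00642, adjusted p = 0.999). C210R010 differed by -0.35, from 0.25 ± 0.26 to -0.10 ± 0.36 (n = 10 each). C242R044 went from 0.59 ± 0.28 to 0.17 ± 0.48, which is -0.41 (standard error 0.17, limma p = 0.0159, adjusted p = 0.999).

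The rule pooled both tanks, and each tank had 4 or 5 fish a day. Against the 4 day 0 fish of tank 1, the 84 probes above day 0 had medians of 0.24, 0.23 and 0.23 on days 3, 5 and 7. Against the 5 day 0 fish of tank 2, the medians were 0.24, 0.26 and 0.20. The 66 probes below day 0 had medians of -0.23, -0.22 and -0.22 in tank 1 and -0.20, -0.23 and -0.23 in tank 2. All 3 days lay on the listed side for 137 members in tank 1 and for 137 in tank 2, and for 124 members in both tanks, counts that follow in part from a choice made on the mean of the 2 tanks.

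For the probes below day 0 the tanks differed most on day 1. The day 1 median was -0.18 in tank 1 and -0.064 in tank 2, and the day 2 median was -0.18 and -0.21. For the probes above day 0 the day 1 medians were 0.15 and 0.11, and the day 2 medians were 0.12 and 0.18. These tank differences on single days were not tested for the lists.

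The difference between tanks in the mean shift of days 3, 5 and 7 was tested for each probe. The rule did not use this difference directly, but it is part of the spread within days by which the score divides. The choice of members was therefore not independent of it, and their count is a description only. With limma, 0 of 43627 probes (0%) passed an adjusted p of 0.05, with a smallest adjusted p of 0.113, and 0 of 150 members, with a smallest adjusted p of 1.00. At an unadjusted p under 0.05 there were 4 members, 2 in each direction, where 3.05% of all probes were counted (1.54% positive and 1.51% negative). The members are all bright probes. In a limma fit of bright probes alone, 204 of 16476 probes and 4 of 150 members were counted. C099R030 had the smallest p of the members. Its mean shift was 0.58 in tank 1 and 0.084 in tank 2, which differ by 0.49 (standard error 0.20, limma p = 0.0160, adjusted p = 1.00). On day 0 its mean was -0.49 in tank 1 (4 fish) and 0.0079 in tank 2 (5 fish). Its means on days 3, 5 and 7 were 0.027, 0.14 and 0.082 in tank 1 and 0.26, -0.064 and 0.083 in tank 2. The shift of C020R085 was -0.021 in tank 1 and 0.38 in tank 2, and that of C124R049 was 0.29 and -0.021. On day 0, C020R085 stood at -0.0039 in tank 1 and -0.29 in tank 2, and C124R049 at -0.29 and -0.062. C220R142, the member of highest score, had shifts of -0.68 in tank 1 and -0.21 in tank 2. Its day 0 means were 0.89 in tank 1 and 0.42 in tank 2. On days 3, 5 and 7 they were 0.23, 0.064 and 0.36 in tank 1 and 0.23, 0.25 and 0.14 in tank 2. On which days the tanks differed was not tested. For C197R161 the shifts were 1.29 in tank 1 and 1.16 in tank 2. The standard errors of C099R030 and C020R085, 0.20 and 0.18, were close to the median shift of the members itself.

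The level itself, averaged over all days, was compared between tanks with day as a covariate. With limma, 0 of 43627 probes (0%) and 0 of 150 members passed, with smallest adjusted p-values of 0.704 and 0.955. At an unadjusted p under 0.05 there was 1 member, where 4.44% of all probes were counted (2.1% higher and 2.35% lower in tank 1). Fitted to bright probes alone, limma counted 586 of 16476 probes and 1 of 150 members. Differences between tanks in level too are part of the spread by which the score divides, so nothing is read from these counts. With replicate number as a block, the comparison of tanks rests on 1 fish, replicate 6 of day 1 in tank 2. Every other replicate number held fish of 1 tank only, so no count is given for that fit. The 1 member was C175R087, which was lower in tank 1 by 0.28 (standard error 0.12, limma p = 0.0238, adjusted p = 0.955). C251R152 was 0.13 higher and C138R004 0.12 lower in tank 1 (unadjusted p = 0.0524 and 0.0585 with limma, adjusted p = 0.955 for both). Fish of a tank share it, so these p-values compare the fish of 2 tanks and not tanks in general.

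Each slide held 4 arrays. On the 6 of 15 slides that held fish of day 0 and of days 3, 5 or 7 (9 and 11 fish), the mean over the 84 probes was higher in the later fish on 6 of 6 slides, by 0.19 to 0.35. The mean over the 66 probes was lower on 6 of 6 slides, by -0.17 to -0.29. These are the fish by which the probes were chosen, so the direction on each slide is a description and no support. With slide as a block, the median shifts over days 3, 5 and 7 were 0.22 and -0.22, against 0.23 and -0.22 without it. The list itself depended on the block more, since 49 of the 150 members were again in the top 150 when day means were adjusted for slide.

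The list also changed with the fish that were used. With the fish of tank 1 alone, 24 members were again in the top 150, and with those of tank 2 alone 29. Leaving out 1 day 0 fish at a time retained 84 to 106 members, and the lowest number came without replicate 7. For the 150 members as first chosen, the median shifts without single day 0 fish ran from 0.21 to 0.24 above day 0 and from -0.21 to -0.24 below. The members were chosen with these same fish and not chosen anew, so these shifts are a description and no support.

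A ratio can move through either dye, so each channel was also read on its own, after centring each array on its bright probes. The Cy3 channel held the same reference pool on all arrays. In Cy5 the 84 probes above day 0 had medians of 0.14, 0.13 and 0.13 above day 0 on days 3, 5 and 7. In Cy3 the same probes had medians of -0.042, -0.071 and -0.069, and they were lower than on day 0 for 67, 72 and 72 of 84 probes. The 66 probes below day 0 had Cy5 medians of -0.24, -0.20 and -0.16 and Cy3 medians of 0.057, 0.064 and 0.065, with the Cy3 signal higher than on day 0 for 58, 52 and 50 of 66. Over all bright probes the Cy5 medians were -0.034, -0.025 and -0.013, with quartiles from -0.14 to 0.093. Their Cy3 medians were 0.0038, 0.00013 and -0.00044, with quartiles from -0.046 to 0.048. On days 1 and 2 the Cy3 medians were -0.058 and -0.033 for the probes above day 0 and 0.043 and 0.037 for those below. In both lists the signal of the shared reference lay on the other side of day 0 from that of the fish. Its part in the choice of the members was not tested.

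The members were dimmer than the bright probes they came from. Their median Cy5 signal was 660, with quartiles of 363 and 2222, against 1197 for bright probes (quartiles 484 and 3697), and 56 of 150 (37.3%) were under 500, against 25.9%. The 66 probes below day 0 were brighter, at 828, than the 84 above, at 594. Flag code 3, whose meaning is not stated in the sources used here, fell on 2.33% of their Cy5 values and on 4.96% of those of bright probes. On the array the members lay in all parts. With the rows cut into 4 equal bands, these held 34, 43, 36 and 37 members, 4 such bands of columns held 36, 40, 33 and 41, and 0 of 11175 pairs touched.

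Between fish of the same day, the members were only weakly correlated. With signs turned so that all members point one way, the mean correlation over the 11175 pairs was 0.037, and 4831 pairs were below 0. The leading component of their deviations from day means held 12.5% of the variation, against 29.7% for the bright probes. A correlation above 0.5 in size with the leading component of all probes was found for 18 members and for 47.8% of bright probes. These correlations share arrays and normalization, and they describe 59 fish. The score divides by the spread within days, so probes with a small spread between fish were favoured. The lower shares of the members are therefore a description only.

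A few members were alike. C175R087 and C209R085, both below day 0, correlated at 0.917 between fish of a day, and lay 34 columns apart on the array. Their differences from day 0 were -0.32 and -0.32 on day 3, -0.54 and -0.56 on day 5, and -0.32 and -0.32 on day 7. C072R049, C089R019 and C048R122, above day 0, correlated at 0.811 to 0.884. Their differences were 0.73, 0.70 and 0.50 on day 3, 0.43, 0.51 and 0.36 on day 5, and 0.38, 0.33 and 0.31 on day 7. By tank, the mean shifts of days 3, 5 and 7 were 0.97, 0.90 and 0.71 in tank 1 and 0.13, 0.19 and 0.13 in tank 2. Their day 0 means were -1.28, -1.26 and -0.96 in tank 1 (4 fish) and -0.58, -0.77 and -0.48 in tank 2 (5 fish). The means of C072R049 on days 3, 5 and 7 were -0.012, -0.35 and -0.58 in tank 1. In tank 2 they were -0.30, -0.59 and -0.45. For C175R087 and C209R085 the mean shifts were -0.33 and -0.42 in tank 1 and -0.42 and -0.36 in tank 2. Day 3 fish of C072R049 ran from -0.75 to 0.51 (median -0.032), against -1.91 to 0.13 (median -0.95) on day 0. The 5 were picked with their values known, and whether they share a target was not analysed here.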

How the data were processed

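The authors deposited, for each of 60 arrays, background-corrected scanner intensity values of both channels, per the file headers, which do not name the method. They also deposited a table of log2 values. Compared with the scanner values of 14678 probes (over 100 in Cy5 and in Cy3), each column matched its own array best (correlation 0.961 to 0.999) as a log2(Cy5/Cy3) from which the probe's median was taken off; column medians ran from -0.0232 to 0.0252, and the within-array normalization is unknown.

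Members were ranked in that table. All other values are log2(Cy5/Cy3) from the scanner files, floored at 0, with 50 added to both channels, which understates changes of dim probes, and normalized by loess within each array. Day, tank and replicate come from the titles. Slide is a number in the headers of the scanner files, taken here to mark the slide. The array titled day 1, tank 0 was left out of groups, since the design has 2 tanks. Tests used lmFit and eBayes in limma 3.58.1 (R 4.3.3) on 59 arrays and 43627 probes with Benjamini-Hochberg adjustment. The fits were also run on simulated data of independent noise, with added shifts larger than the median shift of the members. That run does not show whether shifts as small as theirs would be found. The p-values rest on variation among single fish.

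The members and lists were chosen with earlier results of these data known. The 10 highest scores in each direction and the 3 smallest p-values of each test were named. Gene lists gave no result, as probes carry no gene names. The number of arrays limits the precision. Alternatives covered offset, background, normalization, the authors' table, signal limit, slide, replicate number, moderation, weights, tanks and single arrays.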

Additional observations from a re-analysis of the deposited data

Results flagged for a closer look

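In 48 sets of values (6 probes and the 2 list means on 6 days), 2 held a fish far from the others of its day, where chance gives about 2.4. Probe C099R030 stood at 0.514 in replicate 9 of day 5, with the next fish at 0.107. Probe C220R142 stood at -0.646 in replicate 2 of day 7, with the next fish at 0.0148.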

How the results depend on the processing

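Under every planned setting limma called 0 members at an adjusted p of 0.05 in the 3 tests, and 0 probes, except that the difference between tanks gave 1 probe, not a member, when replicate 2 of day 2, or replicate 1 of day 7, was left out. With 59 arrays left out in turn, counts at an unadjusted p of 0.05 are given for the 150 members and for all 43627 probes. For day 2 against day 1 they were 6 to 13 members and 1663 to 2135 probes. For tanks they were 1 to 6 members (6 without replicate 8 of day 7) and 1583 to 2924 probes (2924 without replicate 2 of day 7). For the difference between tanks they were 3 to 6 members and 1199 to 1611 probes. Median centring in place of loess gave 19 members (all higher on day 2) and 3625 probes (1769 higher) for day 2 against day 1. It gave 0 members and 907 probes for the difference between tanks. For tanks, the count of 1 member became 2 without offset, in the authors' table and with normexp, and 4 with array weights. Over all probes these settings gave 1858, 1881, 1921 and 1909, against 1939 in the main fit. With the replicate block the comparison of tanks rests on 1 fish, so no count is given. With bright probes alone, 204 of 16476 probes and 4 of 150 members were counted for the difference between tanks. The replicate block gave 9 members and 1915 probes for day 2 against day 1, and 4 members and 1381 probes for the difference between tanks. Replicate numbers name separate fish, nearly always of one tank; deviations of same-numbered fish correlated at 0.0297 on average (-0.528 to 0.689), and 5 of 59 arrays correlated best with their own number.

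The median shift of the members above day 0 was 0.32 with median centring, which also moved the median of bright probes to 0.10; the shift of those below was then -0.13. The list kept 67 members with median centring, 94 with a signal limit of 500, 49 with slide adjustment, 47 without division by the SD, and 24 and 29 in tanks 1 and 2. Without single day 0 fish it kept 84 to 106 (84, 92, 99 and 99 without replicates 7, 3, 1 and 4). For the shifts, all settings but the offset, and the values of single channels and slides, were added after seeing the data. The cause of these moves was not tested.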

Other observations

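The array titled day 1 and tank 0 entered no day mean in the choice of members or in the main comparisons. Its flags did count in the filter for code 1. The list kept 106 of 150 members when this array was taken as day 0. Taken as day 1, the array gave 9 of 150 members and 1762 of 43627 probes at an unadjusted p under 0.05 with limma for day 2 against day 1. Its mean log2 ratio over the 84 probes above day 0 was -0.036, where day 0 fish ran from -0.31 to -0.022 and day 1 fish from -0.10 to 0.095. Over the 66 probes below day 0 it was 0.069, where day 0 fish ran from 0.097 to 0.36 and day 1 fish from -0.049 to 0.18.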
